A study of Caenorhabditis elegans with 2 samples.

Results

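The genes described are 8 autophagy genes of Caenorhabditis elegans, lgg-1, lgg-2, epg-7, epg-8, bec-1, unc-51, atg-18 and hlh-30, out of 19973 protein-coding genes on the 6 chromosomes. They were chosen by name from genes already seen to lie near peaks of tagged JUN-1 in these data. Every peak summit from 1000 bp upstream of any of their transcript starts through the end of the gene was then collected. JUN-1 is a worm relative of JUN, a subunit of the AP-1 transcription factor, and its DNA contacts were mapped by chromatin immunoprecipitation followed by sequencing. The animals were whole L4 larvae, the final larval stage, of strain OP234, with their sex given in the labels as males and females pooled. They are mutant at unc-119 (allele ed3, on III) and hold the insertion wgIs234, which carries jun-1 fused to eGFP. There was 1 group of 2 biological replicates, with no second genotype, stage or treatment to compare. The regulatory sequence that drives the transgene and the state of the original jun-1 gene are not given in the labels. In whole larvae, a site used in few cells and a site used weakly in many cells cannot be told apart.

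Autophagy encloses cytoplasm in a double membrane, the autophagosome, and delivers it to the lysosome for breakdown. A kinase starts the process, a lipid kinase complex marks the growing membrane, and ubiquitin-like proteins become attached to that membrane and help to bring in cargo. In worms autophagy clears protein aggregates and paternal mitochondria in the embryo and acts in starvation survival and lifespan. The transcription factor HLH-30, the worm relative of mammalian TFEB, switches on many autophagy and lysosome genes.

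Reproducible tagged JUN-1 peaks lay upstream of both ubiquitin-like protein genes, lgg-1 and lgg-2, of the scaffold gene epg-7 and of the lipid kinase subunit gene epg-8, and inside introns of hlh-30. The genes bec-1, unc-51 and atg-18 had weak peaks only, none of which passed the authors' reproducibility threshold. A summit is the position of highest signal in a peak, and the signal is the value the authors' peak caller gave that peak, on a scale that the sources used here do not state. Signals from different lists were therefore never divided by one another. The list made from both replicates jointly held 13085 peaks, with a median signal of 21.8 and a lowest of 16.8. Of these, 899 passed the authors' threshold on the irreproducible discovery rate and are called reproducible here, with signals from 49.6 up to 564. The replicate 1 list held 19396 peaks with a median signal of 10.9, and the replicate 2 list held 23742 with a median of 10.1. All of these longer lists contain background regions as well as peaks, and read depth is unknown because no file gives read counts.

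The 8 genes held 23 summits of the joint list, 29 of the replicate 1 list and 34 of the replicate 2 list. For each annotated transcript start, the promoter window is the stretch from 1000 bp before it to 200 bp past it. A reproducible summit fell in such a window at 5 of the 8 genes, while 3.35% of all protein-coding genes had one. A joint-list summit of any strength fell in a promoter window at 6 of the 8, against 24.7% of all genes. Counting the gene body too, the numbers were 5 of 8 with a reproducible summit (4.02% of all genes) and 8 of 8 with a joint-list summit (36.6% of all genes). These shares are background only. The genes were selected on these same peaks, so no test was made and nothing is read from the excess.

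All 8 reproducible summits at these genes had a partner within 100 bp in both replicate lists, as did 846 of the 899 reproducible summits in general (94.1%). Among the 15 joint-list summits at the genes that were not reproducible, 6 had a partner in both replicates (40.0%), against 36.4% of all such summits in the joint list. None of the 15 was without a partner in either replicate, and 860 of the 12186 such summits in the whole joint list were. The weakest reproducible summit of the group had a signal of 52.2 and the strongest summit below the threshold had 29.8, both at hlh-30, on either side of the limit of 49.6. The former, at rank 801 of the 899 and the only reproducible summit in an hlh-30 promoter window, lay close to that limit. It was not among the 899 strongest peaks of either replicate alone, which leaves 4 of the 8 genes with such a promoter summit.

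**Figure D1:**
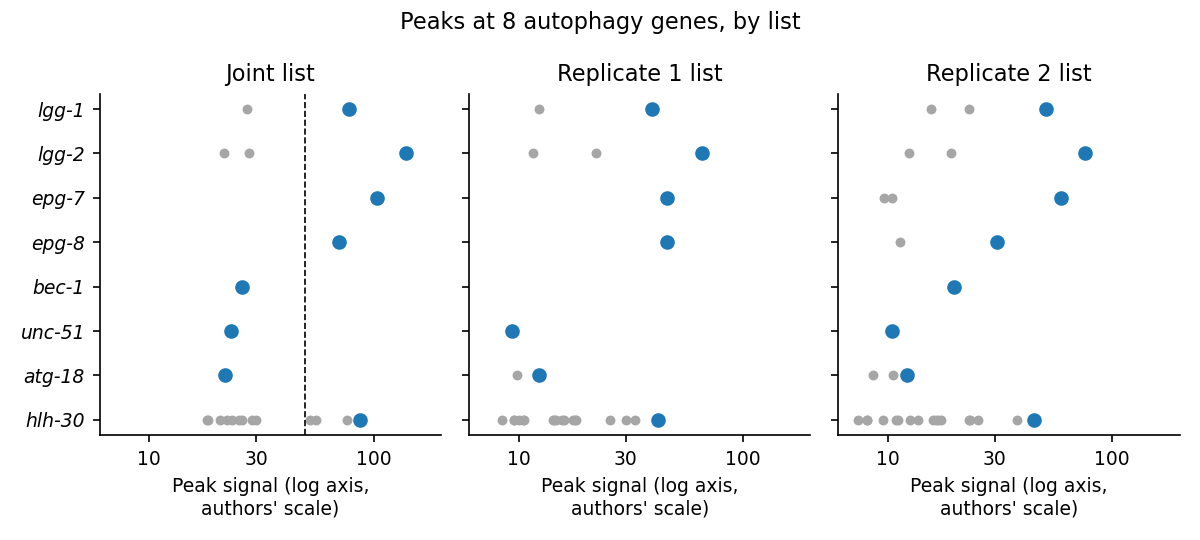
Signal of every summit at the 8 autophagy genes in the joint, replicate 1 and replicate 2 lists (log axes, the authors' scale, which need not be shared between lists). The blue point is the strongest summit of a gene in that list, grey points are its other summits, and the dashed line is the lowest reproducible signal of 49.6. In the joint list lgg-1, lgg-2, epg-7, epg-8 and hlh-30 have points right of the line, whereas bec-1, unc-51 and atg-18 do not.

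The strongest peak of the group stood upstream of lgg-2, which encodes a ubiquitin-like protein of the LC3 family that becomes joined to lipid on the autophagosome membrane. Its summit lay at chrIV:10936179, in intergenic DNA 276 bp upstream of the outer of 2 lgg-2 starts (WBGene00002981, IV from 10934196 to 10935903, minus strand, WBcel235, which is ce11). The signal was 139.5 in the joint list, 66.0 in replicate 1 and 75.3 in replicate 2. These values ranked 74 of 13085, 89 of 19396 and 61 of 23742, which is within the strongest 0.566%, 0.459% and 0.257% of those lists. The replicate summits sat 9 and 21 bp from the joint one. The next protein-coding gene upstream, fic-1, runs in the opposite direction and begins 1275 bp away.

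There were 2 weaker lgg-2 summits, both found in each replicate. One was at -478 bp from the outer start, with signals of 21.6 in the joint list, 11.6 in replicate 1 and 19.1 in replicate 2, and its region overlaps that of the main peak. The other lay in an intron, 425 bp upstream of the inner start at 10935039, with signals of 27.9, 22.1 and 12.4 in the same order. Replicate 1 placed the intronic summit higher in its list than replicate 2 did, at rank 1385 against 6859, while for the outer one the order was turned, at 8093 against 2130.

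The paralogue lgg-1 encodes the ubiquitin-like protein of the GABARAP family, the usual marker of autophagosomes in worms. Its reproducible summit was far upstream for such a peak, 939 bp from the only annotated start (WBGene00002980, II from 6346960 to 6347719, minus strand). The median distance to the nearest start was 223 bp over the 519 reproducible summits in promoter windows, and 14 of them (2.70%) lay at least as far out as that of lgg-1. The signal was 78.0 in the joint list (rank 330), 39.4 in replicate 1 (rank 342) and 50.8 in replicate 2 (rank 184). Replicate summits were 54 and 45 bp from the joint one, on opposite sides of it. The end of the neighbour C32D5.10, on the same strand, was 549 bp further upstream, and lgg-1 was still the gene of nearest start.

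A second lgg-1 summit was close to the start, at -267 bp, and was weaker. It had a signal of 27.1 in the joint list, 12.3 in replicate 1 and 23.0 in replicate 2, at ranks 3652, 6986 and 1338. The replicate summits were 80 and 38 bp from the joint one but 118 bp from each other, too far to match directly. In replicate 2 alone a summit with a signal of 15.5 also appeared in the coding exon, 392 bp into the gene. Thus both ubiquitin-like genes carried 1 strong upstream peak in both replicates, and that peak was the strongest of its gene in all 3 lists. Each also had at least 1 weak upstream joint-list summit with a partner in both replicates.

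The scaffold gene epg-7 encodes a worm relative of the mammalian scaffold FIP200, which takes part in the degradation of the cargo receptor SQST-1. Its single joint-list summit lay 196 bp upstream of the only start (WBGene00020334, X from 7334714 to 7340268, plus strand), at chrX:7334518. The signal was 104 in the joint list (rank 150), 46.0 in replicate 1 (rank 224) and 58.9 in replicate 2 (rank 122). The replicate summits were 2 and 0 bp from the joint one, the closest placement among the 8 reproducible summits of the group. Replicate 2 also listed summits of 10.4 and 9.61 at 3755 and 5208 bp into the gene, near its list median of 10.1, and replicate 1 had none there. The gene ttr-30, on the same strand, ended 2615 bp upstream of the summit.

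The 50 bp to either side of these 3 summits are printed because they carry the strongest peaks at the membrane-conjugation and scaffold genes, and because all of them hold a GAGAGA repeat. Sequences are from the RefSeq copy of WBcel235 and run 5′ to 3′ on the strand of the gene, with that repeat in capitals (it reads TCTCTC when it lies on the other strand).
lgg-1, chrII:6348608-6348708, minus strand: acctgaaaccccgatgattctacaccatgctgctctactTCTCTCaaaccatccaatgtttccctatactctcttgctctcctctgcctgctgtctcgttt
lgg-2, chrIV:10936129-10936229, minus strand: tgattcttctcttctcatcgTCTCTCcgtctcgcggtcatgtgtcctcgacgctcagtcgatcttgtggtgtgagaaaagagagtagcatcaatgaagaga
epg-7, chrX:7334468-7334568, plus strand: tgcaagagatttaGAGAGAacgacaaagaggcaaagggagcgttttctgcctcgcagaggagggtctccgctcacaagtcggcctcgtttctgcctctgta
The nearest copy was 8 bp from the summit at lgg-1, 28 bp at lgg-2 and 34 bp at epg-7. At epg-7 the repeat read GAGAGA along the gene, and at the other two it read TCTCTC.

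The lipid kinase complex is represented by bec-1 and epg-8. The gene bec-1 encodes the worm Beclin, a core subunit of that complex with roles in endocytosis as well as autophagy, and it had no reproducible summit. Its only joint-list summit lay 285 bp upstream of the outer of 2 starts (WBGene00000247, IV from 5661141 to 5664425, minus strand), with a signal of 25.9 and rank 4117. Replicate 2 held the same summit, 5 bp away, with a signal of 19.7 at rank 1927. Replicate 1 held none, its nearest summit being 1896 bp away, so the peak rests on replicate 2. The summit window also covers 46 bp of the small nucleolar RNA gene T19E7.29, and the part of that gene in the signal was not tested. The nearest reproducible summit was 3878 bp past the end of bec-1, at chrIV:5657263 with a signal of 77.1, and its nearest start was that of skn-1, a stress-response transcription factor gene. The window is shown since a longer GA run stands beside this weak peak too, 36 bp from the summit at its nearest.
bec-1, chrIV:5664660-5664760, minus strand: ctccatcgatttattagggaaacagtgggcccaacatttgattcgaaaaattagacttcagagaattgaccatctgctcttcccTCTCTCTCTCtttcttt

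The gene epg-8 encodes the worm relative of ATG14, the subunit that directs the lipid kinase complex to autophagy. It had a reproducible summit 251 bp upstream of the outermost of 4 starts (WBGene00013695, chromosome I from 9931870 to 9934290, minus strand). The signal was 70.1 in the joint list, 46.0 in replicate 1 and 30.5 in replicate 2. Replicate 1 ranked it higher, at 223 of 19396, than replicate 2 did, at 675 of 23742. This was the reverse of lgg-1, lgg-2 and epg-7, each of which ranked higher in replicate 2. The upstream gene dsbn-1, on the same strand, ended only 96 bp from the summit, and no other protein-coding gene had a promoter window over it. In replicate 2 alone a summit of 11.4 lay 852 bp upstream, within a coding exon of dsbn-1. A stronger reproducible peak, with a signal of 94.4 and its nearest start that of mekk-3, stood 3247 bp beyond the upstream end of the epg-8 window.

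The initiating kinase gene unc-51, the worm relative of yeast Atg1, had no summit in its promoter window in any of the 3 lists. Its joint-list summit was in a coding exon, 1259 bp downstream of the only start (WBGene00006786, V from 19995986 to 20004485, minus strand). The signal was 23.2 in the joint list, 9.33 in replicate 1 and 10.5 in replicate 2, so it was below the median of the replicate 1 list and near that of the replicate 2 list. Both replicates held this summit, 21 and 7 bp from the joint one. Other unc-51 summits were found in 1 replicate only, at 7971 bp into the gene in replicate 1 (9.15) and at 3926 bp in replicate 2 (10.2). The nearest reproducible summit outside was 156790 bp away.

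The gene atg-18 encodes a protein that binds the lipid made by that kinase complex. Its joint-list summit was in the 3′ UTR, 1899 bp from the nearest atg-18 start (WBGene00018294, V from 8629174 to 8631327, minus strand), and the start of the neighbour F41E6.12 was only 297 bp away. The signal was 21.8 in the joint list and 8.57 in replicate 2, and replicate 1 held no summit within 775 bp. Near the atg-18 start each replicate had a summit of its own, at -169 bp with 12.4 in replicate 1 and at +152 bp with 12.2 in replicate 2. They were 323 bp apart and matched no joint-list summit. The best placed of all summits at unc-51 and atg-18, that of replicate 2 near the atg-18 start, stood 30.4% of the way down its list.

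**Figure D2:**
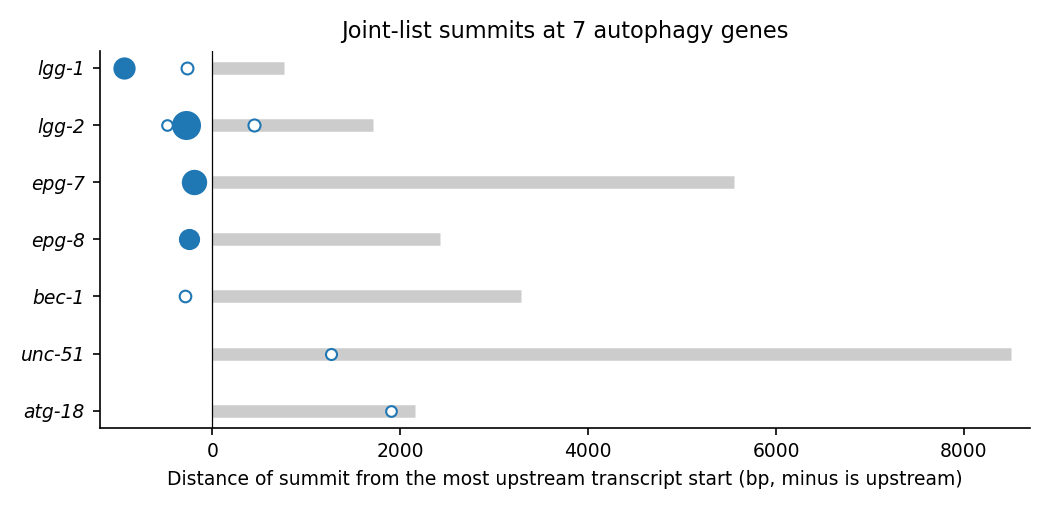
Joint-list summits at 7 of the 8 genes, by distance in bp from the most upstream transcript start (negative is upstream). Grey bars are the genes, filled circles are reproducible summits, open circles are the others, and the area of a circle grows with signal. The reproducible summits of lgg-1, lgg-2, epg-7 and epg-8 lie at -939, -276, -196 and -251 bp, and the summits of unc-51 and atg-18 lie inside the genes.

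The largest number of peaks was over hlh-30 (WBGene00020930, IV from 4014793 to 4034951, minus strand), a gene of 20159 bp. Its 13 transcripts have 10 starts spread over 16620 bp. The gene held 13 joint-list summits with signals from 18.05 to 86.6, 18 in replicate 1 from 8.48 to 42.0 and 17 in replicate 2 from 7.39 to 44.7. Of the 13, 4 were reproducible, and all 4 were intronic. Per length, that is 0.189 reproducible summits per kb of its window, against 0.00897 per kb over the 6 chromosomes, and 0.614 joint-list summits per kb against 0.130. The gene was selected on these same peaks, and the chromosome rates cover all sequence, so nothing is read from that excess.

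The strongest hlh-30 summit, at chrIV:4024397, was 10554 bp downstream of the most upstream start and 2666 bp from the nearest one. It had a signal of 86.6 in the joint list (rank 256), 42.0 in replicate 1 (rank 288) and 44.7 in replicate 2 (rank 253). The next, at chrIV:4020067, had 76.1, 33.1 and 37.6, at ranks 346, 529 and 403. It was 1023 bp upstream of the nearest of a cluster of inner starts, so it missed a promoter window of 1000 bp narrowly, and its surroundings cover 44 bp of the non-coding RNA gene W02C12.4. Both had a summit within 18 bp of the joint one in each replicate.

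The other two reproducible summits were weaker. The one at chrIV:4026079 had a signal of 55.2 in the joint list, 29.99 in replicate 1 and 25.2 in replicate 2, and was 984 bp downstream of an inner start. Its position was the least exact of the 4, with replicate summits 52 and 81 bp away. These lay on opposite sides of the joint summit, 133 bp from each other, and so did not match directly. Replicate 1 held a further summit there, with 18.1 at rank 2343, which was 66 bp from that of replicate 2. The one at chrIV:4028230 had 52.2, 25.5 and 23.3, and stood 103 bp upstream of the start shared by transcripts W02C12.3b.1 and W02C12.3c.1. That start is annotated 6824 bp downstream of the most upstream one.

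At the most upstream hlh-30 start the peak was weaker than at any of these. A summit at -71 bp had a signal of 29.8 in the joint list, at rank 2883, and 15.9 in replicate 2. The nearest replicate 1 summit, with 14.4, lay at -186 bp, too far away to count as the same. Of the 9 hlh-30 summits below the threshold, 2 were matched in both replicates, 4 in replicate 1 and 7 in replicate 2. One more reproducible peak, with a signal of 56.8, lay 162 bp past the downstream end of the gene and so outside the window counted.

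Long genes hold more summits by their length. Of the 196 protein-coding genes with a window at least as long as that of hlh-30, itself included, 22 had a reproducible summit (11.2%), and 3 had 4 or more. The median number of joint-list summits in these long genes was 3, and 16 of them had at least 13. Over all protein-coding genes of any length, 5 had 4 or more reproducible summits. They were zfp-1 and pqn-41 with 5 each, and ppfr-1, W06H8.6 and hlh-30 with 4 each, where the names other than hlh-30 were picked after their counts were seen.

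**Figure D3:**
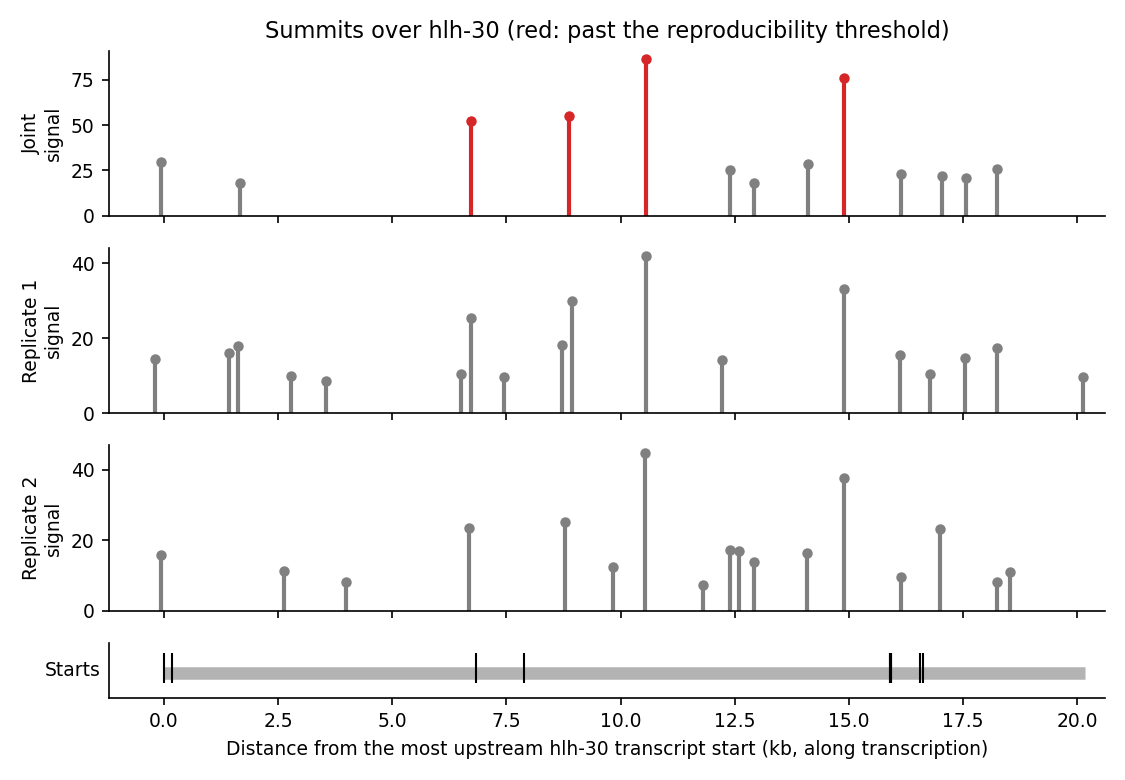
Summits over hlh-30 in the joint, replicate 1 and replicate 2 lists, by distance in kb from the most upstream transcript start, with signal as stem height on a separate scale for each list. Red stems are the 4 reproducible summits, and the bottom track shows the gene in grey with its transcript starts as black ticks. The 4 red stems, between 52.2 and 86.6, stand inside the gene, and each has a summit within 100 bp in both replicates. The joint-list stem at the first start reaches 29.8.

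The sequence around the 4 reproducible hlh-30 summits is shown because they make up 4 of the 8 reproducible summits of the group, and because 2 of them hold a further searched motif. Letters are again on the strand of the gene, minus here, from the RefSeq copy of WBcel235, with every searched motif in capitals.
hlh-30, chrIV:4020017-4020117: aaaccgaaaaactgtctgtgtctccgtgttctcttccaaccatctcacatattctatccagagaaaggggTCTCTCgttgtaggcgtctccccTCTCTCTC
hlh-30, chrIV:4024347-4024447: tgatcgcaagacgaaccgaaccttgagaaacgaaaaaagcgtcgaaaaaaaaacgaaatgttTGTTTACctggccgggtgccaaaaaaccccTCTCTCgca
hlh-30, chrIV:4026029-4026129: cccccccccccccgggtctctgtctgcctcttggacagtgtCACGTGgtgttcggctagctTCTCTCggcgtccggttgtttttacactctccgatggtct
hlh-30, chrIV:4028180-4028280: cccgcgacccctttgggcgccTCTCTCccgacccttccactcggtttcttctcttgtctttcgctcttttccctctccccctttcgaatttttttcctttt
All 4 hold TCTCTC, with the nearest copy 22, 44, 14 and 26 bp from the summit in the order printed. The second also holds TGTTTAC, the reverse complement of the FOXO site GTAAACA, 15 bp from its summit. The third holds the E-box CACGTG, 6 bp from its summit, a palindrome bound by basic helix-loop-helix proteins, the class to which HLH-30 itself belongs.

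A set of 6 motifs was searched on both strands in such windows, from 50 bp before to 50 bp after a summit. The GA repeat GAGAGA was in 7 of the 8 reproducible windows at these genes (87.5%). It was in 29.6% of all reproducible windows, 12.4% of all joint-list windows and 7.47% of windows of the same length centred 200 bp upstream of the most upstream start of each protein-coding gene. The window at epg-8 was the one without it. The repeat read TCTCTC on the strand of the gene in 6 of the 7 and GAGAGA in 1, with the nearest copy 8 to 44 bp from the summit. Since 4 of the 8 windows belong to hlh-30, they do not stand for 8 separate genes, and over the other 4 genes the repeat was in 3. Among the 15 joint-list windows below the threshold it was in 2, those at bec-1 and at the most upstream start of hlh-30.

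The AP-1 site TGANTCA, the textbook target of JUN proteins, was in none of the 8 reproducible windows. It was rare in general, at 4.45% of all reproducible windows and 3.65% of promoter windows of that length. The related CRE site TGACGTCA was in none of the 8 and in 0.556% of all reproducible windows. The E-box was in 1 of the 8 against 4.67%, the FOXO site in 1 against 1.67%, and the GATA site GATAAG in none against 6.90%. A motif that is missing from a window says nothing of the protein there.

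The median GC content was 48.5% both in the 8 windows, which ran from 39.6% to 61.4%, and in all reproducible windows. It was lower in the joint list, at 38.6%, and in the promoter windows, at 33.7%. The part of GC content in the motif shares of these lists was not tested.

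**Figure D4:**
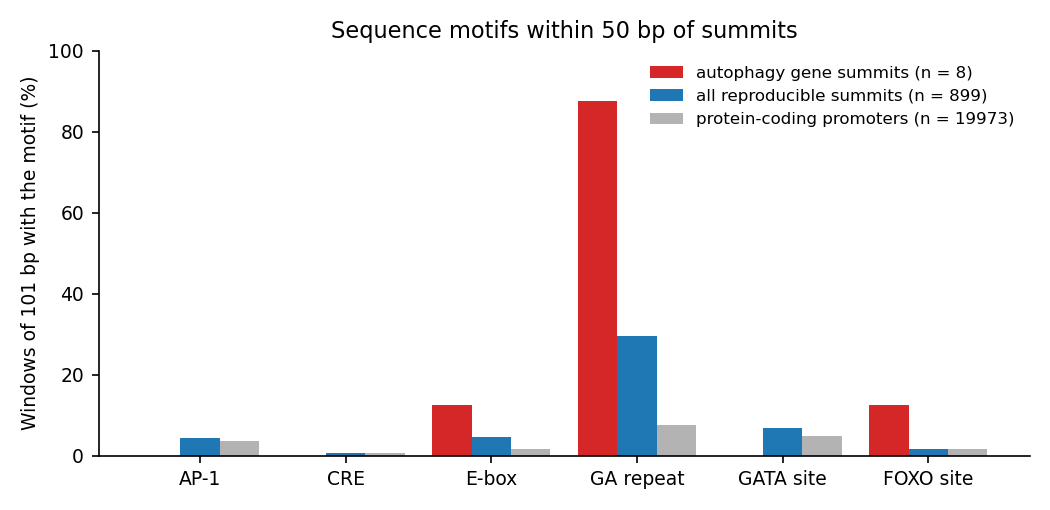
Percentage of windows, 50 bp to either side of a summit, that hold each of 6 motifs, for the 8 reproducible summits at the autophagy genes (red), all 899 reproducible summits (blue) and equal windows at 19973 protein-coding promoters (grey). The GA repeat stands at 87.5%, 29.6% and 7.47%, and the AP-1, CRE and GATA sites are at 0 in red.

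Each of the 5 reproducible promoter summits lay in the promoter window of that autophagy gene and of no other protein-coding gene. In the whole list, 157 of the 519 reproducible summits in promoter windows (30.3%) lay in windows of 2 or more genes. The 5 signals ran from 52.2 to 139.5 with a median of 78.0, inside the range of 49.6 to 499 and near the median of 69.6 over all 519.

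The peaks with the most similar signals in the 3 lists were found by Euclidean distance of log2 signal, over the 492 reproducible promoter summits matched in both replicates. Nearest to lgg-2 was the peak of hsp-1, a heat shock cognate chaperone gene, with 138 in the joint list, 65.0 in replicate 1 and 73.9 in replicate 2, at a distance of 0.04. Nearest to epg-7 was a peak with 109, 46.4 and 60.8, in the windows of both F44E5.4 and F44E5.5, at 0.08. For epg-8 it was the peak shared by F27C1.2 and atp-3, a mitochondrial ATP synthase subunit gene, at 0.09. The hlh-30 promoter peak was closest to that of nstp-6 at 0.01, and lgg-1 to that of F46H5.2 at 0.14. Such likeness in 3 values describes peak strength only.

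The remaining autophagy machinery was read from a list of 27 other names, of which 26 matched the annotation (epg-1 did not). Reproducible promoter summits were at 3 of these 26 genes (11.5%), atg-2, allo-1 and rab-7, beside the background of 3.35%. The gene atg-2, for a lipid transfer protein that feeds the growing membrane, had a summit at -223 bp with 54.6 in the joint list, 26.7 in replicate 1 and 28.2 in replicate 2. The gene allo-1, for the receptor that marks paternal organelles for autophagy in the embryo, had one at -207 bp with 76.5, 32.4 and 47.7. The late endosome GTPase gene rab-7 had one at -788 bp with 105, 65.0 and 44.0. This peak is not particular to rab-7, since its nearest start was that of W03C9.5, 175 bp away, and the windows of W03C9.5 and mex-1 held it too.

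A joint-list promoter summit below the threshold was present at 8 more of the 26, atg-7, atg-9, atg-10, atg-13, atg-16.1, epg-2, epg-6 and epg-9. Their strongest such signals ran from 18.5 to 31.5 with a median of 25.5, the range in which bec-1 lay. A joint-list promoter summit of any strength was thus at 11 of the 26 (42.3%), beside 24.7% of all protein-coding genes. The other 15 had none, among them vps-34 and vps-15, the catalytic and regulatory subunits of the lipid kinase complex, sqst-1, the cargo receptor, and both atg-4 protease genes. The strongest peak at any of the listed genes, singled out after its value was seen, was not at a promoter. It lay in an intron of epg-9, a gene of the initiating kinase complex, 1046 bp from the nearest start, with 204 in the joint list, 109.6 in replicate 1 and 96.7 in replicate 2. Its joint-list region was 132 bp wide, narrower than the usual 376 bp. Counting the gene body too, a reproducible summit was at 4 of the 26 genes (15.4%), beside 4.02% of all protein-coding genes.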

How the data were processed

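Chromatin immunoprecipitation reads of 2 biological replicates had been turned into peak lists by the authors, and the lists were the starting point here. Per the labels the builds are ce10 and ce11. Aligner and caller were not given in the sources used here. Control reads entered the peak calling, per the deposited file descriptions, and their files were not analysed here. The deposited signal of a peak is the authors' value on an unstated scale, used only within a list. The deposited −log10 q-value, 0.0176 to 3.01 in the joint list, set no threshold. Most regions have a fixed width, 376 bp in the joint list, so widths were not compared. A weak region in a longer list can be background, and a list called against a control may lack sites where the control is high.

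Summits were set against WBcel235 with Ensembl release 115 annotation, whose chromosomes contain all ce11 peak ends, and summits within 100 bp in 2 lists were matched. The names of the 8 genes, the list of other autophagy genes and the motifs were chosen with earlier results of these data known, so all counts are descriptions without tests. The rule for named genes took all 8 genes, other listed genes with a reproducible promoter summit, and the peak of nearest signals for each of the 5. Other listed genes, neighbours of a summit and the genes with the most reproducible summits were named in addition, after their values were seen. Each replicate has a biosample of its own in the labels, which leave unsaid whether the cultures were separate. The code was tested on simulated summits and motifs. Alternatives changed the promoter window, the assignment rule, the threshold, the matching distance, the motif window and the replicates used. The ce10 lists gave only a second threshold. Python 3.11.15, numpy 2.4.6, pandas 2.3.3 and matplotlib 3.10.9 were used.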

Additional observations from a re-analysis of the deposited data

How the results depend on the processing

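Across 11 results, 51 alternatives were run, and 45 left the count within 1.5 times its value. A motif count that stayed at 0 was scored as unchanged, and counts were compared without regard to their totals. The tally is therefore no measure of how firm the results are. Reproducible promoter summits were at 4 of the 8 genes, in place of 5, with a window of 500 bp upstream (lgg-1 lost), with the 449 strongest reproducible peaks (hlh-30 lost), or when the strongest 899 peaks of either replicate alone were used (hlh-30 lost in both). Of the 26 other listed autophagy genes, 2 in place of 3 had a reproducible promoter summit with a window of 500 bp upstream (rab-7 lost). The number was also 2 with the nearest transcript start only (rab-7 lost) or with the 449 strongest reproducible peaks (atg-2 lost). Any overlap of the peak region gave 4, adding epg-9. With a window of 2000 bp upstream, these genes numbered 6 in place of 3, adding atg-7, epg-9 and sqst-1. The members with a joint-list promoter summit then numbered 7 in place of 6, adding unc-51. The share of all protein-coding genes was not computed for that wider window. Leaving out joint-list summits within 250 bp of small RNA genes removed bec-1. With motif windows reaching 100 bp either side, the E-box was in 2 of the 8 windows and the GATA site in 2, in place of 1 and 0. Their shares of all reproducible windows were then 8.45% and 12.7%. The GA repeat was in 8 of the 8 at that width, against 44.0% of all reproducible windows. In windows of 61 bp it was in 5 of the 8, against 19.4%. A count without hlh-30, added once the data had been seen, gave the GA repeat in 3 of 4 windows and the E-box and the FOXO site in 0 of 4. The lowest signal of the ce10 threshold list, 46.4, also added afterwards, changed no count. No paired analysis was possible because there is 1 group and no result comes from a test. Read depth is unknown, so a gene without a summit may have binding that these lists do not resolve, and 2 replicates with separate signal scales give no standard deviation.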
